A study of Mus musculus with 36 samples.

Results

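The 10 genes described here are Foxo1 and Foxo3, which encode FOXO transcription factors, and 8 genes known to respond to FOXO factors, fasting or cellular stress (Cdkn1a, Depp1, Pdk4, Ddit4, Txnip, Angptl4, Sesn1 and Trp53inp1). They were found by symbol among 54532 gene identifiers in a table of read counts, and all 10 were among the 18438 genes with enough reads to test. The genes were chosen by name with earlier results of these same counts in view. No source states which contrast weighed in the choice. Every difference between groups is therefore given, with its p-value, as a description, and none is independent support. The counts come from whole brains of wild-type C57BL/6 mice at day 19, given as the peak of experimental autoimmune encephalomyelitis (EAE), an induced autoimmune attack on myelin.

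There were 4 groups. Farnesol-treated EAE mice (n = 10) were gavaged daily with trans,trans-farnesol, an isoprenoid alcohol, at 100 mg per kg dissolved in corn oil. Vehicle EAE mice (n = 9) were gavaged with corn oil, untreated EAE mice (n = 9) had EAE and no treatment, and naive mice (n = 8) were healthy. EAE was induced in the first 3 groups with the MOG35-55 peptide of a myelin protein, an emulsion of complete Freund's adjuvant, and pertussis toxin, so these agents go with the disease in every comparison with naive mice. The labels describe no group given the adjuvant and toxin without the peptide, describe no fasting, and give neither age nor sex. They do not say that each library is a separate animal, so p-values judge a group difference against the spread between these libraries.

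FOXO factors are held outside the nucleus when insulin and growth factor signalling through AKT kinases is active, and they enter it and switch on their targets when that signalling falls. Their targets include genes that stop cell division, spare glucose and restrain the growth kinase complex mTORC1, and many of the same genes also answer to glucocorticoids, p53, low oxygen or glucose sensing. In brain, FOXO factors are known from neurons, glia and the vessel wall, and a whole-brain library mixes all of these.

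The stretch before the start of a gene is where many of these factors bind, and 3 such windows are shown because Depp1 and Txnip were the members called higher than naive in all 3 EAE groups, while Cdkn1a and Depp1 were the members called lower with farnesol than without treatment. Each window is the 250 bases before an annotated start, on the gene's strand, from RefSeq (GRCm38.p6), which held 8 of the 10 members. Capitals mark matches, on either strand, to any of 6 motifs. These were the FOXO motif GTAAACA, its variant GTAAATA, the glucocorticoid receptor motif ACANNNTGT, the E-box CACGTG, the TATA box TATAAA and the CCAAT box CCAAT, and no other motif was searched. The variant was added after the windows had been read.
Depp1, chr6:116650434-116650683, plus strand: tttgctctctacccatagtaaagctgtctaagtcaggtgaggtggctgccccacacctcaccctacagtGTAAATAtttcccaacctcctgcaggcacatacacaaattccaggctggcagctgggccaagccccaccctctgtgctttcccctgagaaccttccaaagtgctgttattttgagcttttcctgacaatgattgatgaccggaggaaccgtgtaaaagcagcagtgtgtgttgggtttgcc
Txnip, chr3:96557707-96557956, plus strand: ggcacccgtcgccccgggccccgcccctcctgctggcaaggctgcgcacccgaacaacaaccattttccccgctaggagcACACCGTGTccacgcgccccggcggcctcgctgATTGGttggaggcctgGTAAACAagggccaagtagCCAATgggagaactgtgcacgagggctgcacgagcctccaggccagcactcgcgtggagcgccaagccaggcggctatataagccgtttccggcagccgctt
Cdkn1a, chr17:29090729-29090978, plus strand: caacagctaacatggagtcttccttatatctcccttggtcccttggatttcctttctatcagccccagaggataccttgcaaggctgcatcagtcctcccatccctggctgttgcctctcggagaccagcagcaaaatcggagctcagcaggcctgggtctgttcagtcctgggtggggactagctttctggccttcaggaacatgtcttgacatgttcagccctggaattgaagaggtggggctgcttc
The Txnip window held GTAAACA at -121, counting back from the base before the start, ACANNNTGT at -170 and CCAAT (read as ATTGG on the other strand) at -137 and -102. GTAAACA is found in 3.17% of all 32851 promoter windows of this length, ACANNNTGT in 5.84% and CCAAT in 33.8%. Depp1 held the variant GTAAATA at -181, which 2.73% of windows hold. RefSeq held 2 windows for Cdkn1a, and the window shown is the upstream of these. Neither held any of the 6 motifs, and p53 sites were not among the motifs searched. No window of any member held GTAAACA besides Txnip, or CACGTG (6.02% of windows) or TATAAA (12.4%). CCAAT was also in windows of Pdk4, Ddit4, Sesn1 and Foxo1. A match is only a stretch of letters, and no binding was measured.

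Levels below are in CPM, read counts divided by the TMM-scaled library total, given as lowest, median and highest library or as mean ± SD. Changes are log2 ratios ± SE with the group named first on top, and a gene is called changed where the Benjamini-Hochberg adjusted p from edgeR's quasi-likelihood test over all 18438 genes is below 0.05. Per kilobase of exon, the mean level over all 36 libraries ran from 25.2 CPM for Ddit4, through 17.1 for Foxo3, 16.9 for Sesn1, 8.29 for Txnip, 6.66 for Cdkn1a, 3.85 for Foxo1, 3.47 for Pdk4, 3.08 for Trp53inp1 and 2.05 for Depp1, to 1.01 for Angptl4. Depp1 and Angptl4 have the fewest reads, with 8 to 129 and 37 to 119 reads per library.

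Libraries held 14.7 to 24.2 M counts. A ribosomal RNA gene, CT010467.1, split them in a way no label mentions. Set 1 (21 libraries, up to 2816 CPM) held farnesol replicates 1 to 3 with every vehicle and untreated library, and set 2 (15 libraries, from 5157 CPM) held farnesol replicates 4 to 10 with every naive library. Untreated and vehicle brains share no set with naive brains, so set and group cannot be told apart there except through a set term that rests on the farnesol libraries alone. The spermine-binding protein gene Sbp was above 1 CPM in 8 libraries, namely untreated EU1 to EU5 and 3 vehicle libraries, and 3 libraries (1 farnesol, 1 untreated and 1 naive) were low in cerebellar genes. Refits were made within a set, with a set term, and without EU1 to EU5, EU6 to EU9 or the libraries low in cerebellar genes. Their values stand beside each call of a member that they change. No vehicle comparison was refitted without the 3 vehicle libraries above 1 CPM for Sbp.

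**Figure D1:**
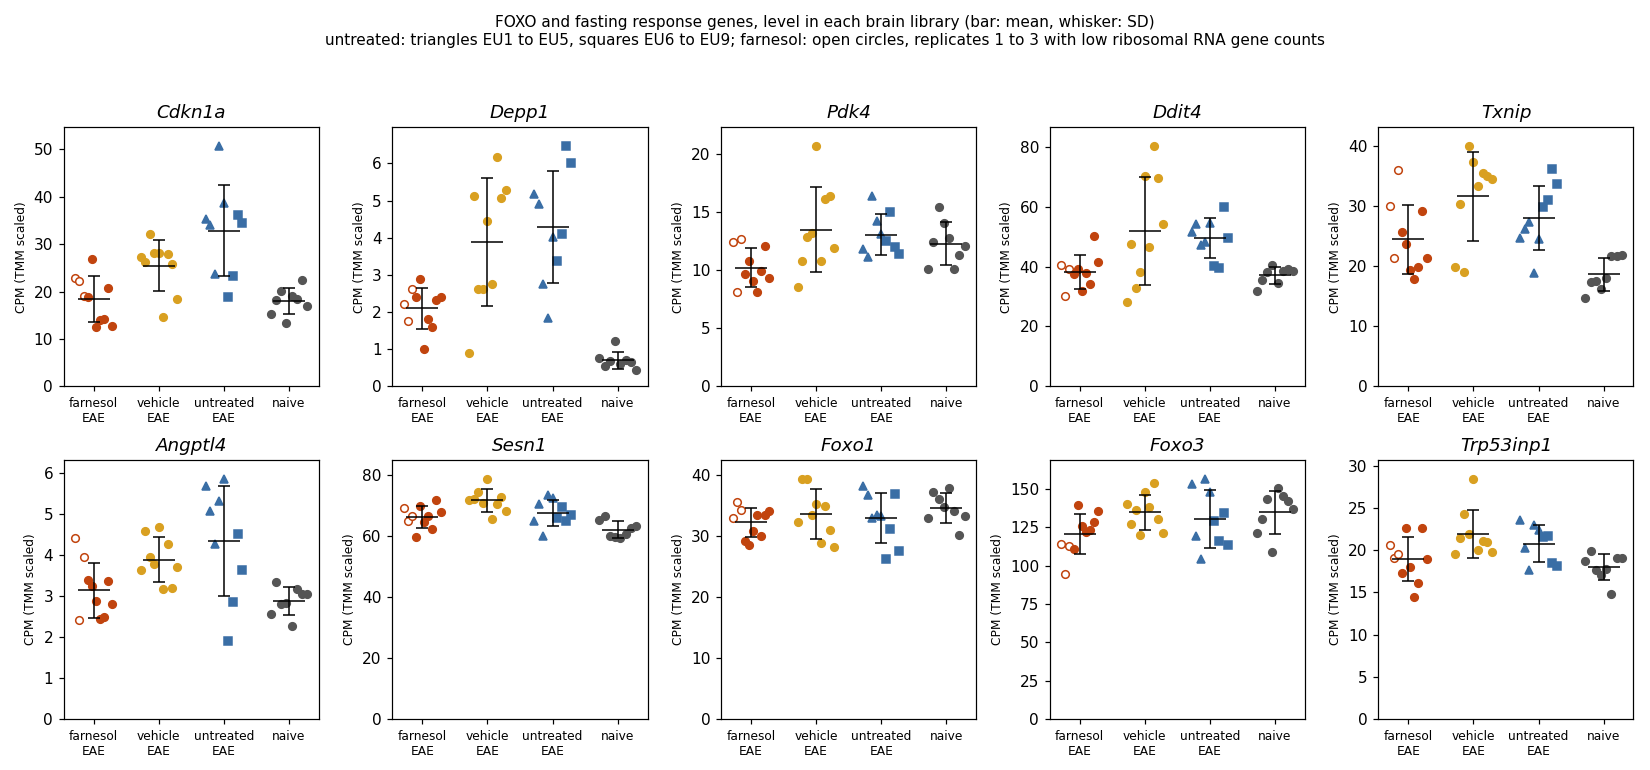
Level of each of the 10 genes in every library, in CPM on a linear axis that starts at 0, for farnesol-treated EAE, vehicle EAE, untreated EAE and naive brains. Bars are means and whiskers SDs, open circles are farnesol replicates 1 to 3, triangles are untreated EU1 to EU5 and squares EU6 to EU9. The lowest untreated library for Depp1 (1.85 CPM) lies above the highest naive library (1.23 CPM), whereas the Foxo1 points of all groups share a band between 26.3 and 39.4 CPM.

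Neither FOXO factor was called in any of the 6 comparisons. Foxo1 (ENSMUSG00000044167, chr3:52268336-52353221, plus strand, GRCm38), the factor best known for the liver's fasting response, had 28.6, 33.2 and 35.6 CPM (lowest, median, highest) in farnesol-treated brains, 28.2, 33.5 and 39.4 in vehicle, 26.3, 33.3 and 38.2 in untreated and 30.3, 34.5 and 37.9 in naive brains. All 4 ranges overlapped. The 95% interval of the log2 difference was -0.24 to 0.03 for farnesol over naive, -0.18 to 0.10 for vehicle over naive and -0.21 to 0.07 for untreated over naive.

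Foxo3 (ENSMUSG00000048756, chr10:42181841-42276755, minus strand), a factor linked to stress resistance, had 94.5, 123 and 139 CPM in farnesol-treated, 120, 137 and 154 in vehicle, 104, 129 and 157 in untreated and 109, 140 and 151 in naive brains. The farnesol libraries lay lowest as a group but overlapped every other group. Farnesol over naive was -0.16 ± 0.07 (adjusted p = 0.0935), and farnesol over vehicle was -0.16 ± 0.07 (adjusted p = 0.793). Farnesol replicates 1 to 3 (set 1) averaged 107 CPM and replicates 4 to 10 (set 2) averaged 127 CPM. Their ranges, 94.5 to 114 and 111 to 139 CPM, overlapped. Vehicle and untreated libraries, all in set 1, averaged 135 and 130 CPM, and naive libraries, all in set 2, averaged 135 CPM. The lowest farnesol, untreated and naive libraries, at 94.5, 104 and 109 CPM, were those low in cerebellar genes. That farnesol library is replicate 2, so it enters the mean of replicates 1 to 3. The cause of the difference between the farnesol replicates was not tested. Without the libraries low in cerebellar genes the naive comparison passed (-0.165, adjusted p = 0.0481).

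Depp1 (ENSMUSG00000048489, chr6:116650609-116652794, plus strand), an intracellular protein gene that FOXO factors switch on in human cells, moved most. It had 0.995, 2.27 and 2.89 CPM in farnesol-treated brains, 0.906, 4.46 and 6.17 in vehicle, 1.85, 4.10 and 6.46 in untreated and 0.436, 0.670 and 1.23 in naive brains. All 9 untreated libraries, 8 of 9 vehicle libraries and 9 of 10 farnesol libraries lay above every naive library. It was 2.99-fold higher than naive in farnesol-treated brains (1.58 ± 0.29, adjusted p = 9.25e-05), 5.52-fold higher in vehicle (2.46 ± 0.29, adjusted p = 1.07e-07) and 6.07-fold higher in untreated brains (2.60 ± 0.29, adjusted p = 7.76e-08).

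With the set term these Depp1 changes were 1.55 (adjusted p = 0.00056), 2.36 (adjusted p = 0.00616) and 2.5 (adjusted p = 0.00607) for farnesol, vehicle and untreated over naive, and no other member kept a call. Inside set 2, farnesol replicates 4 to 10 over naive gave 1.55 (adjusted p = 7.29e-05). Rassf4, on the other strand, spans Depp1 but shares 0 exon bases with it. Rassf4 averaged 24.5 ± 6.64 CPM in farnesol-treated, 26.0 ± 8.56 in vehicle, 26.0 ± 4.70 in untreated and 19.6 ± 3.73 in naive brains, so its differences from naive, 0.33, 0.41 and 0.41 (adjusted p = 0.115, 0.0513 and 0.0613), were smaller than those of Depp1. Whether the counting used strand is not given, and what unspliced Rassf4 reads add to Depp1 was not tested.

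Farnesol-treated brains had 2.03-fold less Depp1 RNA than untreated brains (-1.02 ± 0.24, adjusted p = 0.016), and 4 of 10 farnesol libraries lay below every untreated one. Against vehicle the difference was -0.89 ± 0.24, which did not pass (adjusted p = 0.208, unadjusted p = 0.000687). The vehicle group was wide, from EV1 at 0.906 CPM, within the naive range, to 6.17 CPM. The call against untreated brains was lost under 3 settings. Without EU6 to EU9 it was -0.82 (adjusted p = 0.118), with the set term -0.95 (adjusted p = 0.219), and with set 1 alone, 3 farnesol against 9 untreated libraries, -0.96 (adjusted p = 0.324).

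Cdkn1a (ENSMUSG00000023067, chr17:29090976-29100727, plus strand) encodes p21, an inhibitor of cyclin-dependent kinases that p53 and FOXO factors induce. It had 12.6, 18.9 and 26.8 CPM in farnesol-treated brains, 14.7, 27.4 and 32.2 in vehicle, 18.9, 34.4 and 50.6 in untreated and 13.4, 18.4 and 22.4 in naive brains. The naive range lay inside the farnesol range, with 2 farnesol libraries above and 2 below every naive library, while 8 of 9 untreated and 7 of 9 vehicle libraries lay above every naive library. Untreated brains were 1.82-fold above naive (0.86 ± 0.16, adjusted p = 0.000193) and vehicle brains 1.41-fold above (0.50 ± 0.16, adjusted p = 0.0187). Farnesol over naive was 0.04 ± 0.16 (adjusted p = 0.888), with a 95% interval of -0.28 to 0.35. With the set term vehicle over naive was 0.18 (adjusted p = 0.775), and untreated over naive was 0.55 (adjusted p = 0.369).

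Cdkn1a was 1.77-fold lower in farnesol-treated than in untreated brains (-0.83 ± 0.15, adjusted p = 0.00228), and 5 of 10 farnesol libraries lay below every untreated library. Over vehicle it was -0.46 ± 0.15 (adjusted p = 0.473), and vehicle over untreated was -0.37 ± 0.16 (adjusted p = 0.517), so vehicle lay between the others in mean level. Farnesol replicates 1 to 3 averaged 21.4 CPM and replicates 4 to 10 averaged 17.1 CPM. The call against untreated brains was lost without EU1 to EU5 (-0.61, adjusted p = 0.0948), with the set term (-0.61, adjusted p = 0.203) and in set 1 alone (-0.62, adjusted p = 0.264).

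Pdk4 (ENSMUSG00000019577, chr6:5483351-5496309, minus strand) encodes the kinase that shuts off pyruvate dehydrogenase and so spares glucose in fasting. It had 8.07, 9.76 and 12.6 CPM in farnesol-treated brains, 8.55, 12.9 and 20.6 in vehicle, 11.1, 12.5 and 16.3 in untreated and 10.1, 12.2 and 15.4 in naive brains. Of 10 farnesol libraries, 7 lay below every untreated library and 6 below every naive library. None of the 6 comparisons was called. Farnesol over naive was -0.27 ± 0.12 (adjusted p = 0.0893), and inside set 2 it was -0.32 and passed (adjusted p = 0.023). Untreated over naive was 0.09 ± 0.13 (adjusted p = 0.664).

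Angptl4 (ENSMUSG00000002289, chr17:33773750-33781830, minus strand) encodes a secreted inhibitor of lipoprotein lipase that fasting raises in fat and liver. It had 2.40, 3.06 and 4.41 CPM in farnesol-treated brains, 3.16, 3.78 and 4.66 in vehicle, 1.90, 4.51 and 5.84 in untreated and 2.27, 2.93 and 3.33 in naive brains. The untreated group spread widest, with 7 of 9 libraries above and 1 below every naive library. Vehicle brains exceeded naive by 0.43 ± 0.16 (adjusted p = 0.036) and untreated brains by 0.58 ± 0.16 (adjusted p = 0.00596), while farnesol over naive was 0.13 ± 0.16 (adjusted p = 0.562). Without EU1 to EU5 untreated over naive was 0.15 (adjusted p = 0.597). Vehicle over naive was also lost without a count filter (adjusted p = 0.0565) or without the libraries low in cerebellar genes (adjusted p = 0.0515). With the set term vehicle over naive was 0.14 (adjusted p = 0.828) and untreated over naive 0.29 (adjusted p = 0.66).

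Farnesol over untreated was -0.45 ± 0.15 for Angptl4 (adjusted p = 0.103). Against EU1 to EU5 alone the difference was -0.73 and passed (adjusted p = 0.0018), and against vehicle it was -0.30 ± 0.15 (adjusted p = 0.891).

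Txnip (ENSMUSG00000038393, chr3:96557957-96561883, plus strand) encodes an arrestin-like protein that binds thioredoxin and limits glucose uptake. It had 17.9, 22.6 and 36.1 CPM in farnesol-treated brains, 19.0, 34.5 and 40.0 in vehicle, 18.9, 27.4 and 36.2 in untreated and 14.8, 17.8 and 22.0 in naive brains. In the farnesol group 5 of 10 libraries lay above every naive one, against 7 of 9 vehicle and 8 of 9 untreated libraries. The rises over naive were 0.39 ± 0.14 in farnesol-treated (adjusted p = 0.0271), 0.76 ± 0.14 in vehicle (adjusted p = 0.000103) and 0.59 ± 0.14 in untreated brains (adjusted p = 0.00222). Farnesol over vehicle was -0.37 ± 0.13 (adjusted p = 0.541) and over untreated -0.20 ± 0.13 (adjusted p = 0.54).

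Within the farnesol group, Txnip averaged 29.2 CPM in replicates 1 to 3 (set 1) and 22.5 CPM in replicates 4 to 10 (set 2). Their ranges, 21.4 to 36.1 and 17.9 to 29.3 CPM, overlapped. Inside set 2, farnesol over naive was 0.28 and did not pass (adjusted p = 0.0526). All 3 calls over naive were lost with the set term, at 0.27 for farnesol (adjusted p = 0.176), 0.385 for vehicle (adjusted p = 0.366) and 0.21 for untreated brains (adjusted p = 0.724). Untreated over naive was also lost without EU6 to EU9 (0.38, adjusted p = 0.101). Inside set 1, farnesol over untreated was 0.05 (adjusted p = 0.94). The antisense gene Gm15441 shares 606 of 3123 exon bases with Txnip and averaged at most 0.126 CPM in any group.

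Ddit4 (ENSMUSG00000020108, chr10:59949669-59951834, minus strand) encodes REDD1, a brake on mTORC1 that glucocorticoids and low oxygen induce. It had 30.1, 38.5 and 50.2 CPM in farnesol-treated brains, 28.3, 47.7 and 80.1 in vehicle, 39.5, 49.4 and 60.0 in untreated and 32.0, 38.3 and 40.5 in naive brains. The vehicle group was the most scattered (SD 18.0 CPM, against 5.59 in farnesol-treated brains), with EV5, EV7 and EV8 at 70.2, 80.1 and 69.6 CPM and EV1 below every naive library. Vehicle brains exceeded naive by 0.49 ± 0.14 (adjusted p = 0.00656) and untreated brains by 0.41 ± 0.14 (adjusted p = 0.0259), and farnesol over naive was 0.04 ± 0.13 (adjusted p = 0.843). Farnesol over vehicle was -0.44 ± 0.13 (adjusted p = 0.296) and over untreated -0.37 ± 0.13 (adjusted p = 0.141), with 7 of 10 farnesol libraries below every untreated one. Without EU1 to EU5, untreated over naive was 0.35 (adjusted p = 0.187). Neither call over naive passed with the set term, at 0.57 for vehicle (adjusted p = 0.171) and 0.495 for untreated brains (adjusted p = 0.338).

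Sesn1 (ENSMUSG00000038332, chr10:41809935-41908424, plus strand), a sestrin that lowers mTORC1 activity and is a p53 and FOXO target, had 59.8, 66.7 and 72.0 CPM in farnesol-treated, 65.6, 72.0 and 78.8 in vehicle, 60.0, 67.0 and 73.6 in untreated and 59.3, 61.7 and 66.7 in naive brains. The groups were tight, and 8 of 9 vehicle libraries lay above every naive library. A small rise over naive was called in vehicle (0.21 ± 0.04, adjusted p = 0.000158) and untreated brains (0.12 ± 0.04, adjusted p = 0.0222), while farnesol over naive was 0.10 ± 0.04 (adjusted p = 0.0564). Without EU1 to EU5 farnesol over naive passed (0.09, adjusted p = 0.0457) and untreated over naive did not (0.10, adjusted p = 0.117). Both calls over naive were lost with the set term, at 0.19 in vehicle (adjusted p = 0.113) and 0.105 in untreated brains (adjusted p = 0.508).

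Trp53inp1 (ENSMUSG00000028211, chr4:11156431-11174379, plus strand), a p53-induced stress gene that promotes cell death and autophagy, had 14.5, 19.0 and 22.7 CPM in farnesol-treated, 19.6, 21.1 and 28.4 in vehicle, 17.7, 21.6 and 23.6 in untreated and 14.9, 18.2 and 19.9 in naive brains. Vehicle brains exceeded naive by 0.28 ± 0.08 (adjusted p = 0.00683), and with the set term by 0.20 (adjusted p = 0.455). Untreated over naive was 0.20 ± 0.08 and just missed (adjusted p = 0.0613), passing with DESeq2 (adjusted p = 0.0491). Farnesol over naive was 0.07 ± 0.08 (adjusted p = 0.504). Although 7 of 10 farnesol libraries lay below every vehicle library, the difference of -0.21 ± 0.08 did not pass (adjusted p = 0.562).

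Counted over the 10 members, farnesol-treated brains differed from naive in 2 genes, both higher, where 34.2% of all tested genes were called (17.9% higher). Vehicle brains differed in 7, all higher, where 31.5% of all genes were called (16.3% higher). Untreated brains differed in 6, all higher, where 24.9% of all genes were called (13.6% higher). The median log2 change of the members was 0.06 with farnesol, 0.36 with vehicle and 0.31 without treatment, and over all tested genes the medians were 0.01, 0.00 and -0.01. These 3 comparisons share the naive libraries. With the set term the calls fell to 1 in each comparison, Depp1.

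Farnesol-treated against vehicle brains gave 0 calls among the members, by edgeR and by DESeq2, where 0.0922% of all genes were called. All 10 log2 changes were negative, with a median of -0.33 (-0.00 over all genes), and 9 of 10 had an unadjusted p below 0.05, against 5.59% of all genes. Foxo1 was the exception. The members were chosen with these counts in view, so their shares beside those of all genes are a description only. All vehicle libraries are in set 1, and 7 of 10 farnesol libraries are in set 2. Farnesol-treated against untreated brains gave 2 calls, both lower, where 1.87% of all genes were called (0.911% lower), and again all 10 changes were negative with a median of -0.28 (0.00 over all genes). An unadjusted p below 0.05 was reached by 5 members, against 14.4% of all genes. Both comparisons share the farnesol libraries. Vehicle against untreated brains gave 0 calls by edgeR and by DESeq2, with 2 members at an unadjusted p below 0.05, where 0.0217% of all genes were called and 8.25% had an unadjusted p below 0.05. Cdkn1a and Sesn1 were those 2, at -0.37 ± 0.16 (adjusted p = 0.517) and 0.08 ± 0.04 (adjusted p = 0.565).

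**Figure D2:**
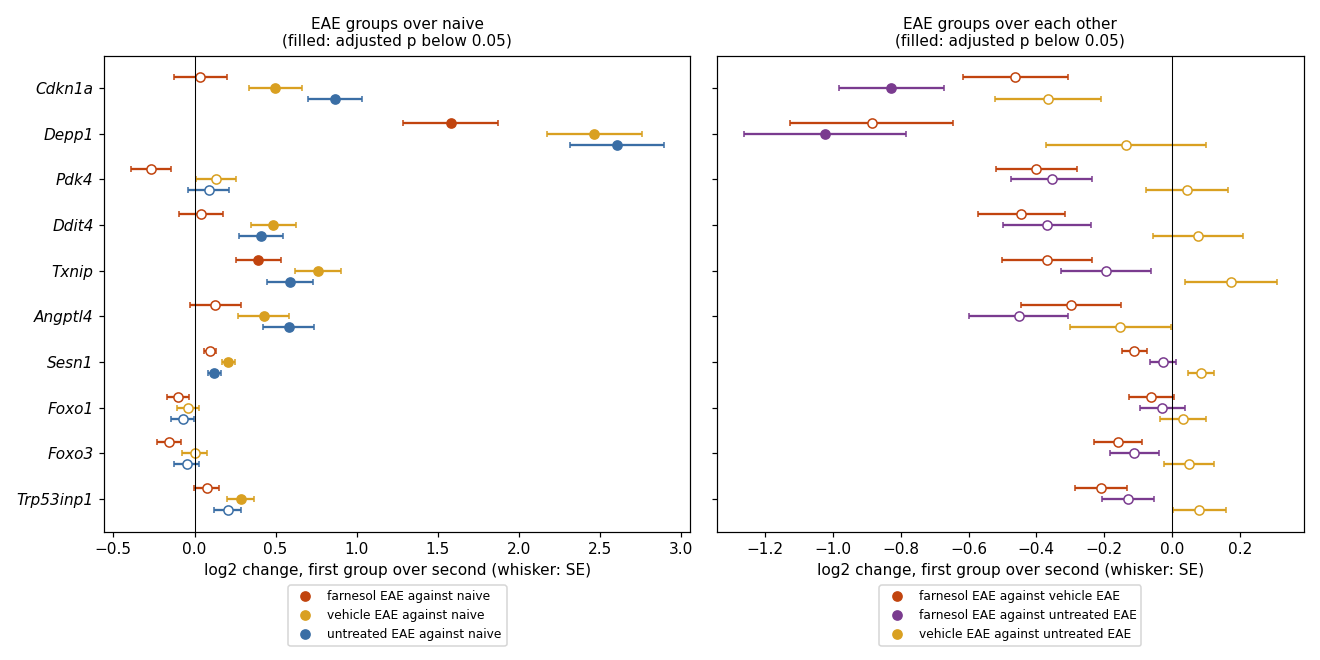
Log2 change of each gene in the 3 EAE groups over naive (left) and between EAE groups (right), from edgeR over all 18438 genes, with SE whiskers and filled points where adjusted p is below 0.05. Against naive, 2 farnesol, 7 vehicle and 6 untreated points are filled, and between EAE groups 2 are, Cdkn1a and Depp1 in farnesol over untreated.

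The ranges of 2 groups did not overlap in 1 case among the members, Depp1 in untreated against naive brains, where this held for 3.62% of all genes. The share of all genes without overlap was 4.82% for farnesol and 7.24% for vehicle against naive, 0.00542% for farnesol against vehicle, 0.103% for farnesol against untreated and 0.0108% for vehicle against untreated brains. In set 1 alone, farnesol-treated against vehicle brains gave negative changes for 9 of the 10 members, with Foxo1 at 0.02, and no member was called against vehicle or untreated brains there. Depp1 was -0.82 over vehicle (adjusted p = 0.503), Ddit4 -0.51 (adjusted p = 0.464) and Foxo3 -0.34 (adjusted p = 0.29).

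**Figure D3:**
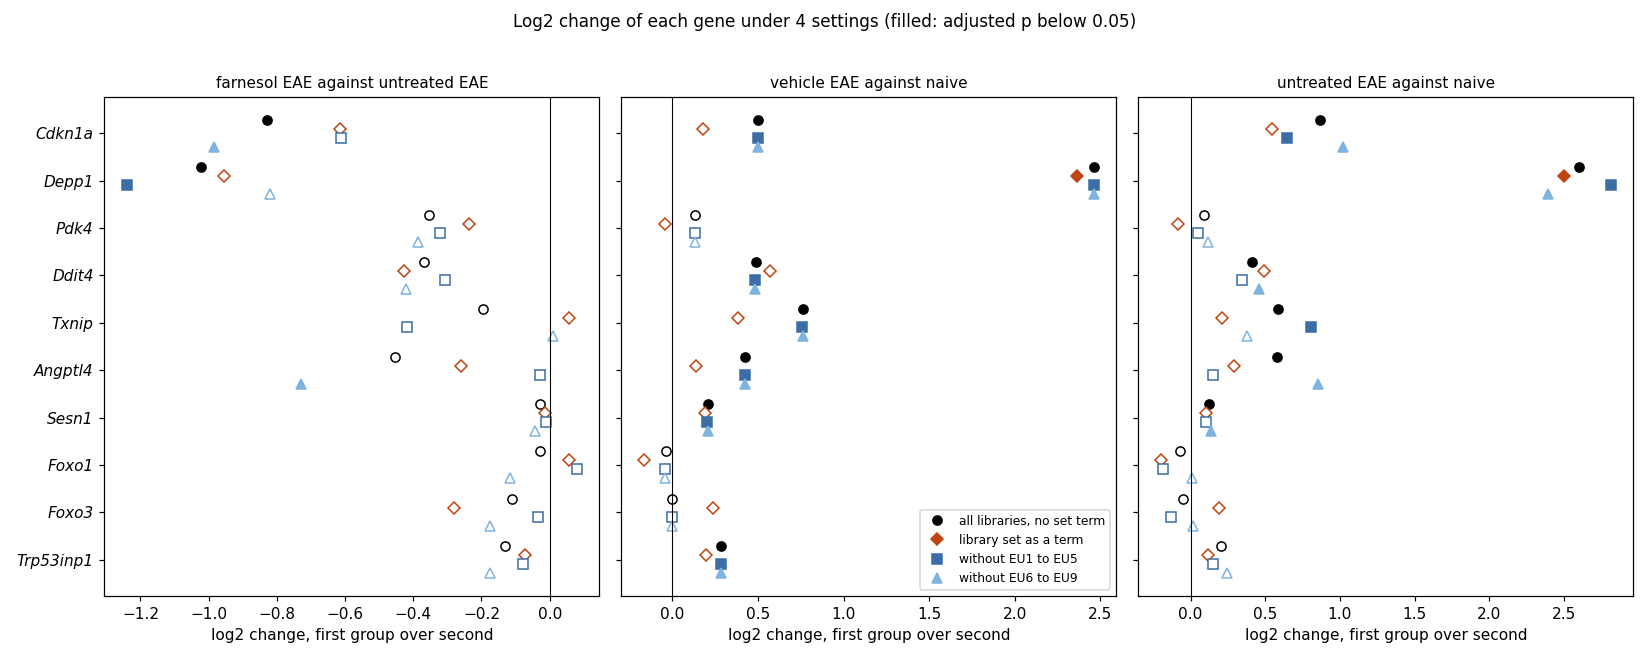
Log2 change of each gene in 3 comparisons with all libraries, with library set as a term, without untreated EU1 to EU5 and without EU6 to EU9; filled symbols have adjusted p below 0.05. The Depp1 rise over naive stays filled under all 4 settings (2.36 to 2.46 in vehicle and 2.39 to 2.81 in untreated brains), and Cdkn1a and Depp1 in farnesol over untreated brains are each filled under 2 of the 4 settings.

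The untreated columns EU1 to EU5 and EU6 to EU9 are described apart because the list was set up to show them so, and no test was made between them. Cdkn1a averaged 36.5 ± 9.66 CPM in EU1 to EU5 and 28.2 ± 8.43 CPM in EU6 to EU9, and Angptl4 averaged 5.22 ± 0.624 and 3.22 ± 1.11 CPM in those columns. Depp1 ran the other way, with 3.74 ± 1.42 CPM in EU1 to EU5 and 4.99 ± 1.49 CPM in EU6 to EU9, as did Txnip with 24.3 ± 3.24 and 32.7 ± 2.80 CPM. Txnip alone had ranges that did not overlap (18.9 to 27.4 CPM in EU1 to EU5, 29.9 to 36.2 CPM in EU6 to EU9), where 6.21% of all tested genes did not overlap. Foxo1 averaged 34.9 ± 2.39 CPM in EU1 to EU5 and 30.5 ± 4.72 CPM in EU6 to EU9, and the 5 other members had log2 ratios between 0.03 and 0.14.

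Of the 13 marker lists for cell types and regions, the sums of 3 did not overlap between these columns, and those of the other 10, neutrophils and neurons among them, did. The 8 monocyte and macrophage markers summed to 70.0 to 110.5 CPM in EU1 to EU5 (median 76.9) and 145 to 214 CPM in EU6 to EU9 (median 180), and the 7 microglial markers to 189 to 308 CPM (median 204) in EU1 to EU5 and 341 to 411 CPM (median 360) in EU6 to EU9. The T cell markers summed to 9.28 to 17.4 CPM (median 15.2) in EU1 to EU5 and 19.6 to 22.6 CPM (median 21.9) in EU6 to EU9. None of these markers was at 0, and their part in the differences between the columns was not tested.

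Known partners of the members were read from gene lists that hold none of the 10. The lists share some genes, Irs2 among them, so their counts are not independent of each other. Of 22 genes for the other FOXO factors and the signalling upstream of them, 3 rose and 8 fell in farnesol-treated, 2 rose and 8 fell in vehicle and 2 rose and 2 fell in untreated brains over naive. The share called was 50%, 45.5% and 18.2% in those groups, where 34.2%, 31.5% and 24.9% of all tested genes were called. All list counts over naive come from the fit without a set term. Sgk1, a kinase that phosphorylates FOXO factors and a glucocorticoid target, rose by 0.69 in farnesol-treated brains (adjusted p = 0.00875), by 1.14 ± 0.21 in vehicle (140 ± 64.8 against 63.6 ± 11.5 CPM, adjusted p = 8.43e-05) and by 1.11 ± 0.21 in untreated brains (137 ± 30.9 CPM, adjusted p = 0.000179). Ywhaz, an adaptor that holds phosphorylated FOXO factors in the cytoplasm, fell by 0.19 ± 0.05, 0.21 ± 0.05 and 0.15 ± 0.05 in farnesol-treated, vehicle and untreated brains. Akt2, an insulin-signalling kinase that phosphorylates FOXO factors, fell in farnesol-treated brains (104 ± 5.84 against 122 ± 7.33 CPM in naive, -0.23 ± 0.04, adjusted p = 3.61e-05) and in vehicle brains (-0.11, adjusted p = 0.0392), and untreated over naive was -0.05 (adjusted p = 0.426).

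Farnesol-treated against untreated brains gave 2 calls in this list. Irs2, an insulin receptor substrate that is also a FOXO target, averaged 84.3 ± 6.07 CPM in farnesol-treated and 107 ± 10.4 CPM in untreated brains (-0.34 ± 0.07, adjusted p = 0.00414). Akt2 averaged 104 ± 5.84 and 118 ± 8.65 CPM in those groups (-0.19 ± 0.04, adjusted p = 0.00677). No gene of any of the 9 pathway lists was called between farnesol-treated and vehicle brains or between vehicle and untreated brains.

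Of other textbook FOXO targets, 25 of 29 were tested. Over naive, 2 rose and 8 fell with farnesol (40% called, against 34.2% of all genes), 4 rose and 6 fell with vehicle (40%, against 31.5%), and 2 rose and 5 fell without treatment (28%, against 24.9%). Sod2, the mitochondrial superoxide dismutase, fell in farnesol-treated (205 ± 16.0 CPM, adjusted p = 0.0021), vehicle (189 ± 6.51 CPM, adjusted p = 1.81e-06) and untreated brains (191 ± 8.89 CPM, adjusted p = 7.49e-06), against 228 ± 2.64 CPM in naive brains. Cat, which encodes catalase, fell by 0.26 ± 0.06 with farnesol, by 0.22 ± 0.06 with vehicle and by 0.18 without treatment. Tnfsf10, the death ligand TRAIL, rose with farnesol (9.61 ± 3.31 against 4.55 ± 0.829 CPM in naive, adjusted p = 0.000696) and with vehicle (log2 change 0.81, adjusted p = 0.00997), and untreated over naive was 0.56 (adjusted p = 0.0893). Klf2, a vessel-wall transcription factor, rose in vehicle (0.52, adjusted p = 0.00774) and untreated brains (23.4 ± 5.55 against 16.0 ± 1.59 CPM in naive, adjusted p = 0.00645), and farnesol over naive was 0.17 (adjusted p = 0.411).

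Of fasting genes of fatty acid oxidation and ketone use, 31 of 32 were tested. With farnesol 1 rose and 11 fell (38.7% called), with vehicle 2 rose and 11 fell (41.9%), and without treatment 1 rose and 12 fell (41.9%), beside 34.2%, 31.5% and 24.9% of all genes, with medians between -0.09 and -0.10. Oxct1, the enzyme that lets cells burn ketone bodies, fell by 0.20 ± 0.03 in farnesol-treated, 0.19 ± 0.04 in vehicle and 0.18 ± 0.04 in untreated brains. Pdk3, a sister kinase of Pdk4, fell by 0.18 in farnesol-treated, 0.29 ± 0.06 in vehicle and 0.28 ± 0.06 in untreated brains. Acaa2, a thiolase of mitochondrial fatty acid oxidation, fell by 0.26 ± 0.07 in vehicle and 0.34 ± 0.07 in untreated brains, and farnesol over naive was -0.17 (adjusted p = 0.0511).

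Of 22 p53 target genes tested, 2 rose and 3 fell with farnesol, 2 rose and 5 fell with vehicle and 2 rose and 1 fell without treatment, which is 22.7%, 31.8% and 13.6% called where 34.2%, 31.5% and 24.9% of all genes were. Fas, a death receptor, rose by 0.85 ± 0.16, 1.03 ± 0.16 and 1.12 ± 0.16 in farnesol-treated, vehicle and untreated brains, and Zmat3, an RNA-binding p53 target, fell by 0.18 ± 0.04, 0.28 ± 0.05 and 0.18 ± 0.05. The hypoxia list (16 genes) gave 4 rises and 4 falls with farnesol and 6 rises and 2 falls in each other EAE group, 50% called in each of the 3. Vegfa, the vascular growth factor, rose to 95.6 ± 8.48 CPM in farnesol-treated, 96.4 ± 9.18 in vehicle and 101 ± 11.9 in untreated brains, against 70.4 ± 4.52 in naive brains. P4ha1, a collagen prolyl hydroxylase, was the hypoxia gene called lower in farnesol-treated (51.6 ± 7.41 CPM) than in untreated brains (64.3 ± 6.55 CPM, adjusted p = 0.00759). Vehicle brains had a like level (52.0 ± 5.11 CPM). Vehicle over untreated was -0.31 ± 0.07 (adjusted p = 0.084), beside -0.32 ± 0.07 for farnesol over untreated.

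Of the 9 pathway lists, the glucocorticoid response genes had the largest share of rises, with 12 of 21 higher and 2 lower with farnesol (median 0.55), 14 higher and 1 lower with vehicle (median 0.62) and 15 higher and 1 lower without treatment (median 0.58), where 17.9%, 16.3% and 13.6% of all genes were called higher. Cebpd, an acute phase transcription factor, averaged 11.1 ± 2.91 CPM in farnesol-treated, 14.3 ± 3.77 in vehicle, 15.2 ± 2.92 in untreated and 5.04 ± 0.754 in naive brains. Nfkbia, the inhibitor of NF-kappaB, averaged 28.6 ± 4.73, 36.1 ± 8.73, 35.3 ± 5.16 and 18.5 ± 1.24 CPM in the same groups. Summed over the list, farnesol-treated brains held 1357 to 1958 CPM (median 1570), vehicle 1538 to 2015 (median 1795), untreated 1457 to 2017 (median 1732) and naive 1290 to 1509 (median 1426). Nr3c1, the glucocorticoid receptor, fell with farnesol (-0.30 ± 0.06, adjusted p = 0.00018), with vehicle (-0.32, adjusted p = 0.000125) and without treatment (-0.27, adjusted p = 0.000972). Many of these genes also answer to inflammation, and no hormone was measured.

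Among 11 genes of Mondo glucose sensing and the arrestin family of Txnip, 5 rose and 1 fell with farnesol (54.5% called) and 4 rose and 1 fell in each other EAE group (45.5%). Arrdc2 averaged 16.2 ± 2.37 CPM in farnesol-treated, 22.1 ± 10.3 in vehicle, 20.7 ± 6.72 in untreated and 9.94 ± 0.795 in naive brains, and Mlxip, which encodes the glucose sensor MondoA, rose by 0.22 ± 0.06, 0.24 ± 0.06 and 0.29 ± 0.06. Of 21 mTORC1 nutrient sensing genes, 2 rose and 6 fell with farnesol, 4 rose and 7 fell with vehicle and 2 rose and 4 fell without treatment, 38.1%, 52.4% and 28.6% called beside 34.2%, 31.5% and 24.9% of all genes. Mtor, the kinase itself, fell by 0.17 ± 0.05, 0.20 ± 0.05 and 0.17 ± 0.05. Of 15 integrated stress response genes tested, 1 rose and 4 fell, 3 rose and 3 fell, and 2 rose and 2 fell in farnesol-treated, vehicle and untreated brains, 33.3%, 40% and 26.7% called. Asns, the asparagine synthetase, was lower by 0.25 ± 0.04, 0.25 ± 0.04 and 0.23 ± 0.04.

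**Figure D4:**
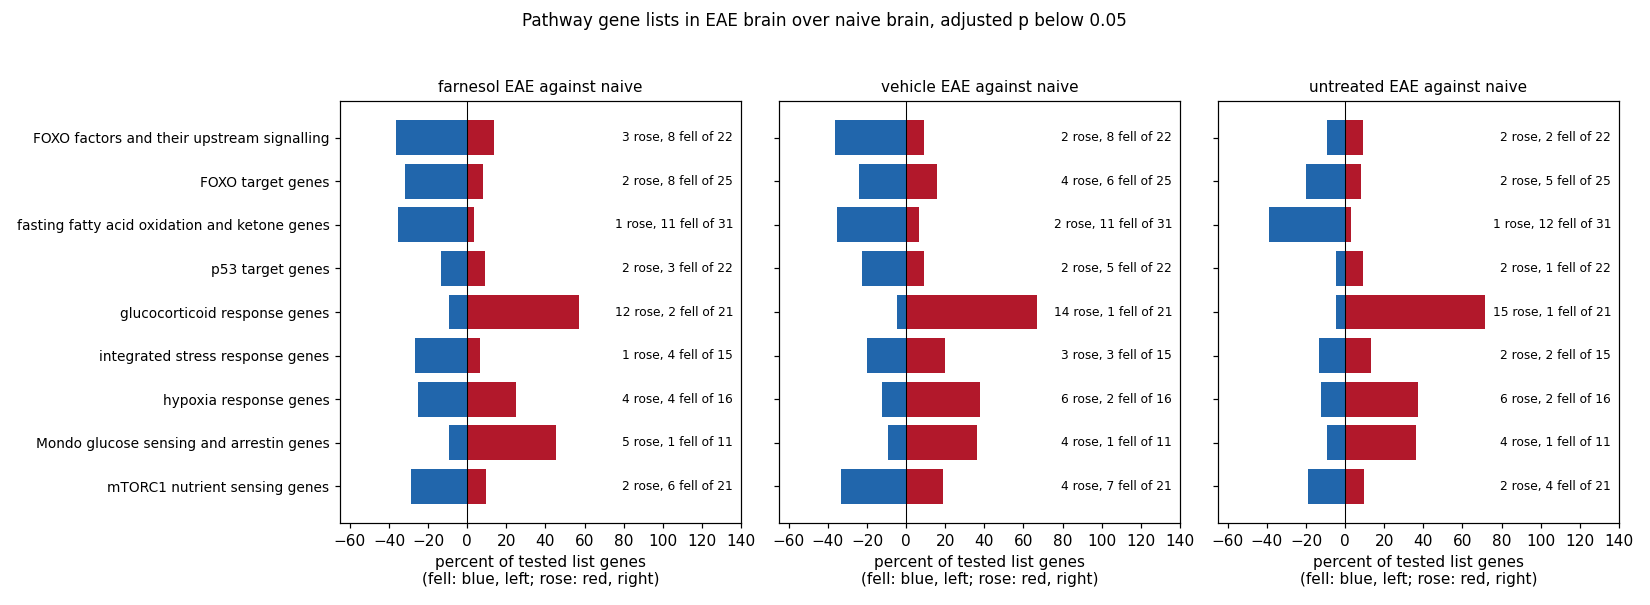
Share of the tested genes of each pathway list, in percent, that rose (red, right) or fell (blue, left) over naive at adjusted p below 0.05, in farnesol-treated, vehicle and untreated EAE brains, with counts printed. Glucocorticoid response genes have the longest red bars (12, 14 and 15 of 21) and of 31 fatty acid oxidation genes 11, 11 and 12 fell while 1, 2 and 1 rose.

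Some markers of infiltrating cells, neurons, astrocytes and olfactory bulb differed between EAE and naive brains, in the fit without a set term. Untreated and vehicle brains share no library set with naive brains. All 8 tested neutrophil markers rose in each EAE group, and the 9 listed summed to 23.2 to 72.7 CPM (median 36.6) with farnesol, 26.5 to 64.7 (median 48.3) with vehicle, 11.1 to 64.3 (median 38.0) without treatment and 1.66 to 3.86 (median 2.47) in naive brains, where 1 of them was at 0. Of 8 monocyte and macrophage markers, 7 rose in each EAE group, with medians of 90.4, 86.0, 110.5 and 37.4 CPM in farnesol-treated, vehicle, untreated and naive brains. Of 8 neuronal markers, 8 fell with farnesol, 7 with vehicle and 5 without treatment. Of 7 astrocyte markers, 4, 1 and 3 fell in those groups (57.1%, 14.3% and 42.9%), and of 7 oligodendrocyte markers 2, 2 and 1 fell. The astrocyte sums there, 4439 to 4893, 4229 to 4856 and 4132.5 to 4928 CPM, lay below every naive library (5045 to 6378 CPM). Over all tested genes, 34.2%, 31.5% and 24.9% were called in those groups. Of 6 olfactory bulb markers, 6 fell with farnesol, 3 with vehicle and 3 without treatment, and they summed to 15.1 to 53.9 CPM (median 16.9) in farnesol-treated, 16.4 to 66.5 (median 28.4) in vehicle, 16.2 to 54.7 (median 23.5) in untreated and 22.4 to 96.1 CPM (median 67.8) in naive brains. The part of these cells and of the tissue taken in the members' levels was not tested. In bulk tissue, fewer cells of a type and less RNA per cell cannot be told apart.

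As a description only, the tested genes whose profiles over the 36 libraries lay closest to each member were found by the root mean square difference of standardised log2 CPM, where 0 is identical. Depp1 lay closest to Nfkbia (0.376) and Cebpd (0.414), and Txnip to Nfkbia (0.504) and Clec4e (0.619). Ddit4 lay closest to Zfp189 (0.553) and Arl4d (0.558), the same genes that came closest to Pdk4 (0.850 and 0.851). Cdkn1a lay closest to Gpt2 (0.632) and Galnt9 (0.652), and Angptl4 to Cdkn1a (0.710) and Gpt2 (0.774). Sesn1 and Trp53inp1 were each other's closest gene (0.677), followed by Ddx5 (0.740) for Sesn1 and Ikzf2 (0.782) for Trp53inp1. Foxo1 lay closest to Htr2a (0.679) and Garem1 (0.728), and Foxo3 to Ccnjl (0.516) and Astn2 (0.557). Differences between the groups, EAE over naive among them, were not removed and enter this measure. Depth, library set and cell makeup differences shared by the libraries enter it too.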

How the data were processed

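The authors deposited 1 table of raw read counts per Ensembl gene for 36 whole-brain libraries. STAR 2.5 and the mm10 build are named in the submitters' processing notes. Per the labels' protocols, libraries were made from total RNA with a NEBNext Ultra kit, and Kallisto is also named. No source used here gives the read counter, the annotation release or whether strand was used. Symbols and coordinates came from GENCODE M21 (GRCm38) by gene identifier, which named 54495 of 54532 identifiers, with 99.99% of counts.

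The filterByExpr function of edgeR 4.0.16 (R 4.3.3) was applied (minimum count 10, minimum total 15), leaving 18438. A quasi-likelihood model, TMM scaled and with 1 mean for each group, used all 36 libraries together, and 6 comparisons were each adjusted by Benjamini-Hochberg at 0.05. SE is the absolute log2 change over the square root of F, and the 95% intervals are the change plus or minus the normal quantile times SE, before adjustment for multiple testing. Depth, 14.7 to 24.2 M counts per library, limits Depp1 and Angptl4 most. Marker sums are CPM over all listed genes. The pipeline was tested on simulated counts with known changes in farnesol libraries, compared with vehicle. It called 19 of 50 genes changed 1.25-fold, 34 of 50 changed 1.5-fold and 46 of 50 changed 2-fold. The simulated counts held no difference between library sets.

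The members and all gene lists were chosen with earlier results of these data known. Named genes are the 10 members, up to 4 genes of smallest p per pathway list and comparison, and the 2 genes of closest profile per member (log2(CPM + 0.5), standardised). Rassf4 and Gm15441 were named for overlapping a member, and EV1, EV5, EV7 and EV8 for their values, after these were seen. Alternatives were RLE scaling, DESeq2 1.42.0, no count filter, the replicate number as a block, library set as a term, set 2 alone, and leaving out EU1 to EU5, EU6 to EU9 or libraries low in cerebellar genes (over 1 log2 below the group median). Set 1 alone was added after seeing the data. Figures were drawn with matplotlib 3.10.9.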

Additional observations from a re-analysis of the deposited data

Results flagged for a closer look

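In naive brains, Depp1 in library N4 measured 1.23 CPM, against 0.758 CPM in the next highest naive library, a gap of 0.595 of the group's whole range, more than a Dixon test at its 95% level allows. N4 is also the naive library low in cerebellar genes. It was the only flag in 40 series of a member within a group, and chance flags about 1 in 20 such series. Without the libraries low in cerebellar genes, the calls of Depp1 over naive were kept in all 3 EAE groups.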

How the results depend on the processing

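Of 520 recomputed changes of a member, 469 kept their direction and side of the threshold, 25 lost and 5 gained a call, and 21 changed sign, none of them called. With RLE scaling none of 60 values changed its direction, after rounding, or its call, and no scaling moved the median of all genes by over 0.01. Replicate numbers share only a number: same-numbered libraries correlated at a median of 0.0129 over 51 pairs, and the replicate block changed no member's call, with 2 called in farnesol against untreated brains.

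Genes called in farnesol against vehicle brains numbered 17, and 42 with DESeq2, 7 with the replicate block, 1 with the set term, 26 without EU6 to EU9 and 0 in set 1 alone. Farnesol against untreated brains gave 345, and 521 with DESeq2, 202 with the block, 56 with the set term, 186 without EU1 to EU5, 567 without libraries low in cerebellar genes and 12 in set 1 alone. Vehicle against untreated brains gave 4, and 7 with RLE scaling, 45 with DESeq2, 10 with the block, 11 with the set term, 11 without EU1 to EU5, 68 without EU6 to EU9, 1 without libraries low in cerebellar genes and 1 in set 1 alone. With the set term, untreated over naive gave 175 in place of 4586 and vehicle over naive 684 in place of 5808. The set term rests on 3 farnesol libraries in set 1 and 7 in set 2.

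Members called in farnesol against untreated brains fell to 0 with the set term, 1 without EU1 to EU5 and 0 in set 1 alone. Over naive, the set term left 1 with farnesol, 1 with vehicle and 1 without treatment, and untreated over naive kept 3 without EU1 to EU5.

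Sign changes with the set term were Foxo1 in farnesol over vehicle (0.026), Txnip (0.056) and Foxo1 (0.058) in farnesol over untreated, Pdk4 (-0.085) and Foxo3 (0.19) in untreated over naive, Pdk4 in vehicle over naive (-0.041) and Cdkn1a in farnesol over naive (-0.068). In set 1 alone Foxo1 was 0.02 over vehicle and 0.055 over untreated, and Txnip 0.051 over untreated, with farnesol. Cdkn1a in farnesol over naive was -0.061 in set 2 alone and -0.05 without libraries low in cerebellar genes. Without EU1 to EU5, Foxo1 was 0.08 in farnesol over untreated, and Txnip was -0.047 and Angptl4 0.27 in vehicle over untreated. Without EU6 to EU9, Txnip was 0.01 in farnesol over untreated, Depp1 0.067, Foxo1 -0.053 and Foxo3 -0.014 in vehicle over untreated, and Foxo1 0.012 and Foxo3 0.014 in untreated over naive. The cause of these changes was not tested. Depp1 and Angptl4 have the fewest reads, which limits their precision.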
